A study of Mus musculus with 12 samples.

Results

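Liver endothelial cell genes were followed in the livers of 12 mice, as 34 genes chosen by symbol that are known as markers of the sinusoidal endothelium, of endothelium in general or of larger vessels. All 34 symbols matched 1 identifier each among the 51912 in the table, and all 34 were among the 18098 genes with enough counts to be tested. The mice were 8 to 9 weeks old at the start and either wild-type or Mlkl-/-, which lack MLKL, the executioner of necroptosis, a form of cell death in which the cell membrane bursts. Normal chow (ND) was fed to some and a diet rich in fat (HFD; 36% fat, with 59% of the energy from lipid) to the others, which gave 4 groups of 3 livers: wild-type ND, wild-type HFD, Mlkl-/- ND and Mlkl-/- HFD. The sample labels give 25 weeks of diet and the series text 16 to 25 weeks. The deletion is not tied to a cell type in the labels, and the livers were taken from fed animals picked for organ weights near the mean. RNA came from whole liver, so fewer endothelial cells and less RNA per endothelial cell cannot be told apart.

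The sinusoids are the capillaries of the liver. Their endothelial cells are pierced by open fenestrae, lack a basement membrane and take up macromolecules from the blood through scavenger receptors. They also send Wnt and BMP ligands to hepatocytes, which set the programme of the cells around the central vein and the level of the iron hormone hepcidin. In chronic liver disease the sinusoids can lose fenestrae and gain traits of ordinary capillaries, a change called capillarisation. The 34 genes were put in 6 classes: 6 scavenger and immune receptors, 7 other sinusoidal genes, 2 sinusoidal transcription factors, 4 angiocrine ligands (signals from endothelium to its neighbours), 11 pan-endothelial genes and 4 genes of larger vessels and capillarisation. The first 4 classes, 19 genes, are called sinusoidal below, although not all are confined to sinusoidal endothelium. For example, Mrc1 is also made by macrophages, Aqp1 by bile duct cells and Rspo3 by stellate cells. Which cells gave the RNA of each gene, Fcgr2b, Gata4 and Maf included, was not tested.

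Libraries held 19435391 to 32120426 counts of 3' ends. Levels are CPM, counts scaled to a common library size with TMM factors, and values of 1 group are given in the order of replicates 1, 2 and 3. Since each read stands for the 3' end of 1 transcript, CPM is not divided by gene length. Mlkl was at 3.01 to 7.64 CPM in the 6 wild-type libraries and at 0.433 to 1.40 in the 6 Mlkl-/- libraries. In 6 libraries (Mlkl-/- ND 1, wild-type HFD 2 and 3 and all 3 Mlkl-/- HFD) a set of 8 loci (Mir6236, Lars2 and 6 loci with Gm names) held 3484 to 9239 summed raw CPM, against 378 to 656 in the others. A gene is called when edgeR's quasi-likelihood test gives an adjusted p under 0.05 over the 18098 genes, and fold changes are log2 with their standard error (SE). Nothing in the labels says how far the 3 animals of a group were housed or processed apart, so p-values measure the spread between these livers.

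Across the 12 libraries the 34 genes summed to 478 to 1111 CPM, beside 65362 to 115905 CPM for 10 hepatocyte products. The sums were 817, 789 and 596 CPM in wild-type ND, 1111, 894 and 786 in wild-type HFD, 560.3, 782 and 758 in Mlkl-/- ND and 478, 479 and 575 in Mlkl-/- HFD livers. The 3 Mlkl-/- HFD sums lay below all 3 wild-type HFD sums, while the ND groups overlapped. Set against each gene's own median over the 12 libraries, 33, 29 and 18 of the 34 genes were above it in wild-type HFD, 30, 27 and 5 in wild-type ND, 5, 25 and 19 in Mlkl-/- ND and 5, 3 and 5 in Mlkl-/- HFD livers. Single libraries thus departed from their group for most genes at once, with wild-type ND 3 and Mlkl-/- ND 1 low. Within wild-type HFD the count fell in order from replicate 1 to replicate 3.

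**Figure D1:**
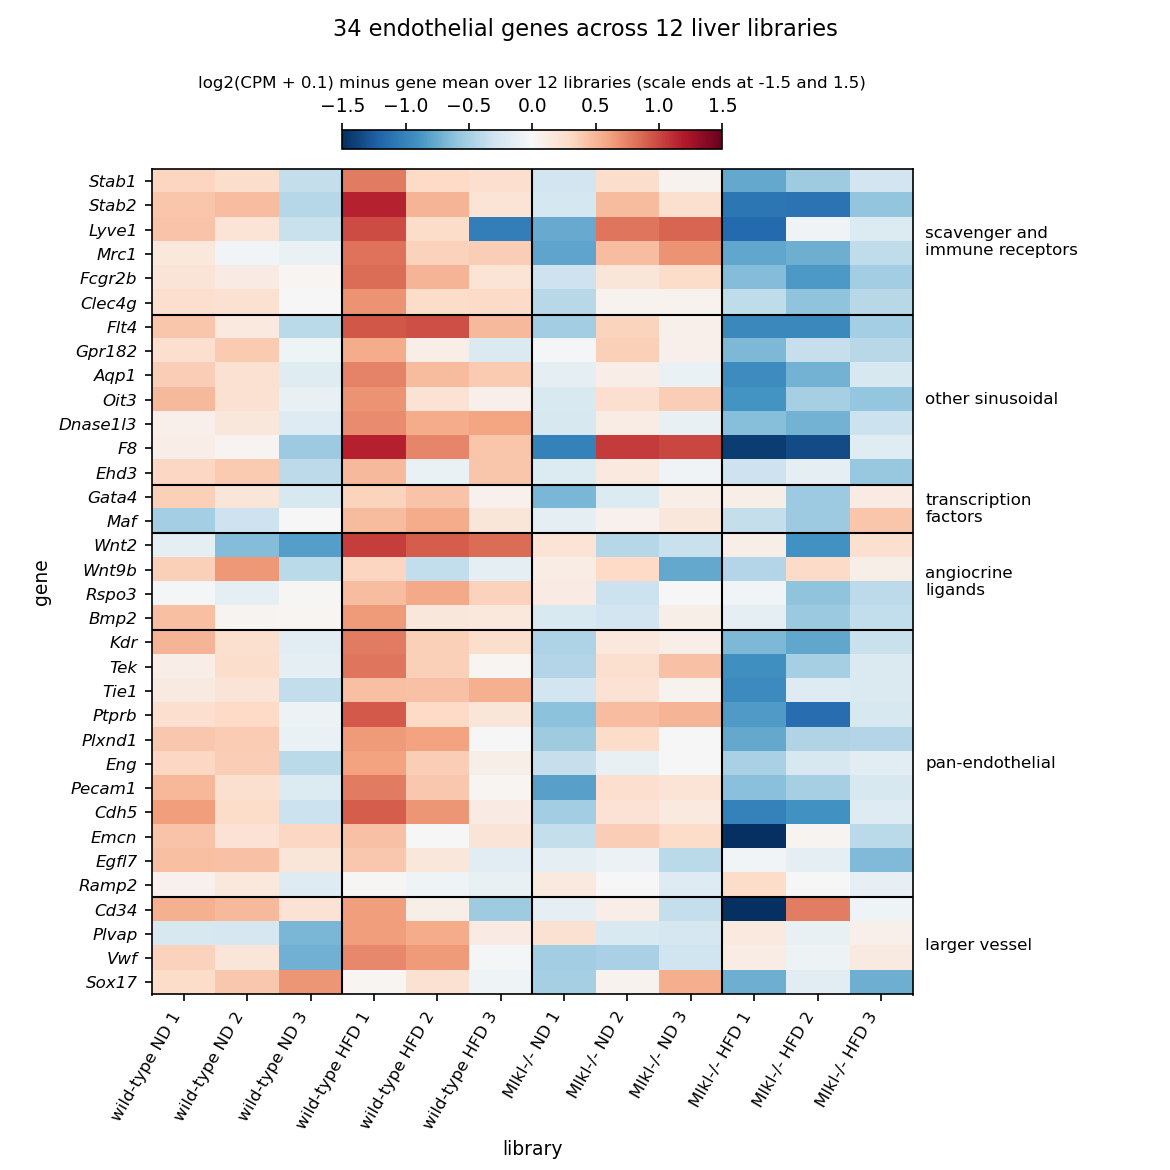
Each row is 1 of the 34 genes, each column 1 library, and colour is log2(CPM + 0.1) minus the gene's mean over 12 libraries, with the scale ending at -1.5 and 1.5. Most rows are red in wild-type HFD 1 and blue in the 3 Mlkl-/- HFD columns, and Ramp2 is near white in all 12.

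Mlkl-/- against wild-type livers on HFD shows what the absence of the gene goes with under the fat-rich diet. Dnase1l3, Flt4 and Fcgr2b fell, all from the sinusoidal set, where 0.0221% of all genes tested were called lower. Of the 34 genes 32 had a negative fold change, whereas 51.7% of all genes were positive. The other 2, Ramp2 at 0.12 and Wnt9b at 0.05, were negative without TMM scaling. Over all genes 5 were called, or 0.0276%, and Mlkl was another of the 5. The 34 genes had a median of -0.89, beside 0.01 over all genes tested.

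Dnase1l3 (ENSMUSG00000025279, mm10 chromosome 14, 7964533 to 7994573, minus strand) codes for a secreted endonuclease that digests DNA in chromatin and membrane particles of the blood. It was at 26.2, 27.9 and 21.6 CPM in wild-type ND, 40.6, 36.7 and 37.5 in wild-type HFD, 21, 26.7 and 22.9 in Mlkl-/- ND and 15.8, 15.2 and 19.8 in Mlkl-/- HFD livers. All 3 Mlkl-/- HFD values were below every other library's, and all 3 wild-type HFD values were above every other. On HFD the genotypes stood at 38.3 ± 2.06 and 17 ± 2.53 CPM (SD, n = 3), a log2 difference of -1.17 ± 0.15 (SE; edgeR adjusted p = 0.0166).

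Flt4 (ENSMUSG00000020357, mm10 chromosome 11, 49609263 to 49652739, plus strand) codes for VEGFR-3, the receptor for VEGF-C, which sinusoidal endothelium shares with lymphatic vessels. It was at 19.4, 16 and 10.9 CPM in wild-type ND, 27.9, 28.4 and 20.4 in wild-type HFD, 10.1, 18.4 and 15.3 in Mlkl-/- ND and 7.39, 7.40 and 10.2 in Mlkl-/- HFD livers. The highest Mlkl-/- HFD value was about that of the lowest Mlkl-/- ND library, and the wild-type HFD values were the 3 highest of all. The log2 difference between genotypes on HFD was -1.62 ± 0.25 (adjusted p = 0.0424), from 25.6 ± 4.48 in wild-type to 8.33 ± 1.63 CPM. Fcgr2b (ENSMUSG00000026656, mm10 chromosome 1, 170958617 to 170976547, minus strand) codes for the inhibitory IgG receptor with which sinusoids clear small immune complexes. It was at 35.6, 33.8 and 31.7 CPM in wild-type ND, 55.5, 44.3 and 35.8 in wild-type HFD, 25, 35.2 and 37.7 in Mlkl-/- ND and 19.7, 17.1 and 21.7 in Mlkl-/- HFD livers. The 3 Mlkl-/- HFD values were below all 9 others. The difference on HFD was -1.21 ± 0.18 (adjusted p = 0.0353), from 45.2 ± 9.88 to 19.5 ± 2.28 CPM.

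The other 31 genes were not called on HFD, though many came with separate groups. In 24 of the 34 genes, the 3 called ones included, all 3 Mlkl-/- values were below all 3 wild-type values, and in 0 they were above. Over all genes tested 10.8% were lower and 10.6% higher without overlap. At an unadjusted p under 0.05 there were 26 of the 34 genes, beside 15.5% of all genes. The count of called members depends on single livers: it was 0 without wild-type HFD 1, without wild-type HFD 2, without Mlkl-/- HFD 1 or without Mlkl-/- HFD 2, and 11 without wild-type HFD 3, when 1.02% of all genes were called. It was 9 without Mlkl-/- ND 1, with 0.403% of all genes, and 1 without wild-type ND 2, with 0.0108%. DESeq2 called 16 of the 34, with 2.2% of all genes, and Dnase1l3 was called with each alternative that kept all livers of both groups. Flt4 and Fcgr2b lost their calls with the title code as a term, limma-voom, a filter of 5 CPM in 3 libraries or non-robust dispersions, and Fcgr2b also with the compared groups alone.

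**Figure D2:**
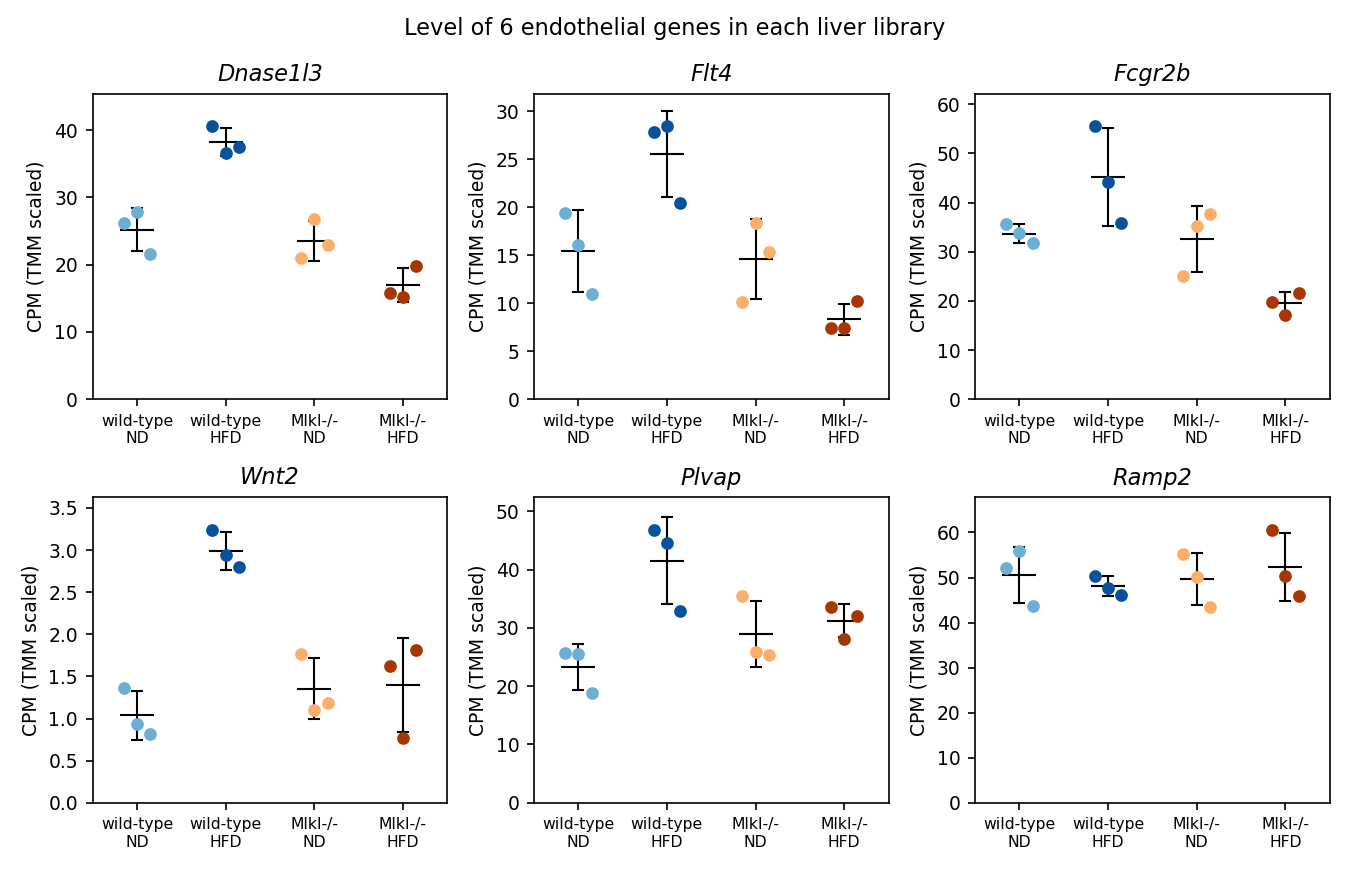
CPM of 6 genes per library, 1 point a liver, with the group mean and SD (n = 3) in black and the vertical axes starting at 0. Dnase1l3, Flt4 and Fcgr2b have their lowest group mean in Mlkl-/- HFD livers, Wnt2 and Plvap have their highest group mean in wild-type HFD livers, and Ramp2 lies between 43.5 and 60.6 CPM in all groups.

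HFD against ND in wild-type mice asks how the vessels of livers with the gene respond to the diet. Dnase1l3, the ligand Wnt2 and the fenestral diaphragm protein Plvap rose, and 0 of the 34 genes fell. Over all genes 4.23% were called and 2.02% called higher, and 3 of 34 is read against those shares. The fold change was positive in 27 of the 34 genes, beside 49% of all genes, with a median of 0.30 beside -0.01 over all genes. Without TMM scaling the median over all genes moved to 0.19 and 30 of the 34 were positive, with Gpr182, Emcn and Ramp2 turning from negative to positive, and the median of the 34 was 0.50. That median was 0.12 without wild-type HFD 1, 0.17 without wild-type ND 3 and 0.61 with a term for the 8 loci, when 21 of the 34 had an unadjusted p under 0.05. The share of all genes at that p was not counted with this term, and 0.873% of all genes were called.

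Dnase1l3 rose by 0.60 ± 0.15 (log2, SE; edgeR adjusted p = 0.0359), from 25.2 ± 3.23 to 38.3 ± 2.06 CPM (SD, n = 3). Wnt2 (ENSMUSG00000010797, mm10 chromosome 6, 17988940 to 18030585, minus strand) codes for a Wnt ligand made by endothelium near the central vein. It was at 1.37, 0.932 and 0.818 CPM in wild-type ND, 3.24, 2.94 and 2.79 in wild-type HFD, 1.77, 1.11 and 1.18 in Mlkl-/- ND and 1.62, 0.769 and 1.81 in Mlkl-/- HFD livers. The wild-type HFD values were the 3 highest of all libraries, at counts of 81, 97 and 58. The rise was 1.53 ± 0.35 (adjusted p = 0.0266). Plvap (ENSMUSG00000034845, mm10 chromosome 8, 71497765 to 71511752, minus strand) forms the diaphragms that span the fenestrae of fenestrated capillaries. It was at 25.7, 25.5 and 18.8 CPM in wild-type ND, 46.8, 44.6 and 33 in wild-type HFD, 35.5, 25.9 and 25.4 in Mlkl-/- ND and 33.5, 28.1 and 32 in Mlkl-/- HFD livers. Only Mlkl-/- ND 1 and Mlkl-/- HFD 1 exceeded the lowest wild-type HFD value among the other 9 libraries. The rise was 0.83 ± 0.18 (adjusted p = 0.0218), and averaged over both genotypes Plvap rose by 0.47 ± 0.13 (adjusted p = 0.0375). The averaged call held without wild-type HFD 3, Mlkl-/- ND 1 or Mlkl-/- HFD 2 and was lost without any 1 of the other 9 libraries, and with a term for the 8 loci.

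Promoter sequences from RefSeq (GRCm38.p6, the assembly behind mm10), 250 bases before to 50 after the start, were found for 19 of the 34 genes and for 3 of the 5 called ones. The 3 are shown because they are the called genes with a window, Fcgr2b and Flt4 lower on HFD without Mlkl and Wnt2 higher on HFD in wild-type livers. Dnase1l3 and Plvap, also called, had no window.
Fcgr2b (chr1:170976022-170976321, minus strand): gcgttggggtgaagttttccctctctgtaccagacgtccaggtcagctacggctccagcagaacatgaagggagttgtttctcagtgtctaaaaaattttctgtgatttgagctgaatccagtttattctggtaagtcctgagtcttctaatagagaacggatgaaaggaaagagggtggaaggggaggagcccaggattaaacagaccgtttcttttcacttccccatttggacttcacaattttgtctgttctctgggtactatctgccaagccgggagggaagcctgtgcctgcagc
Flt4 (chr11:49609429-49609728, plus strand): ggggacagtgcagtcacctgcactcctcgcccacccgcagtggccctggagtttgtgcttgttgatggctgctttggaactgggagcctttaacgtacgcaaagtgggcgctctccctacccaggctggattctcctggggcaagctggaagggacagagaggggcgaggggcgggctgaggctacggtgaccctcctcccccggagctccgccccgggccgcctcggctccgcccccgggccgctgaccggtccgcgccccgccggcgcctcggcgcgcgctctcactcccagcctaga
Wnt2 (chr6:18030396-18030695, minus strand): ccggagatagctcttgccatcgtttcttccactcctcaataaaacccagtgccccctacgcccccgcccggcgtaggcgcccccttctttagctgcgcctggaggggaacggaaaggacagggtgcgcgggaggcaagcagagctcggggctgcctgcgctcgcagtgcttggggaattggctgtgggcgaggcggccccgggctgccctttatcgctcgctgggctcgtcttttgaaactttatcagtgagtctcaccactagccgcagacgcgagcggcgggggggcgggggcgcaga
All 3 are written 5′ to 3′ along the gene. Flt4 and Wnt2 are rich in G and C, at 70.3% and 65.7% with 26 and 27 CpG, whereas Fcgr2b has 48% and 6 CpG.

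Motifs of ETS factors, which act in all endothelium, and of GATA factors, to which Gata4 belongs, were searched on both strands as exact letters, CCGGAAG and ACAGGAA for ETS and AGATAAG for GATA. None of the 3 is in the windows above. ACAGGAA was in 6 of the 21 windows of the members (28.6%, in Egfl7, Emcn, Mrc1, Stab1 and Tie1), beside 8.67% of all 32851 windows. CCGGAAG was in 0 of the member windows, beside 8.86% of all windows, and AGATAAG in that of Tek alone, beside 3.04%. Matches in Stab1, Tie1 and Tek are shown in capitals with up to 20 bases on each side, where TTCCTGT is ACAGGAA on the other strand.
Stab1 (chr14:31168628-31168674, minus strand): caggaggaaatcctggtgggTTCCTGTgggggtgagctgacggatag
Tie1 (chr4:118490032-118490078, minus strand): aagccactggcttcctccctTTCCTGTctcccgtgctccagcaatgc
Tek (chr4:94739305-94739338, plus strand): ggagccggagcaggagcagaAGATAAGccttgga
A match describes the letters of the window and not a bound factor.

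In 12 of the 34 genes the wild-type HFD values were above all wild-type ND values and in 1, Sox17, below, where 14% and 15.2% of all genes were so. At an unadjusted p under 0.05 there were 8, all higher, beside 20.5% of all genes. The 3 calls ended without wild-type ND 1, 2 or 3 and without wild-type HFD 1 or 2, when 0 members were called by edgeR. Over all genes 1.07% were called without wild-type ND 1 and 0.538% without wild-type ND 2, against 4.23% with all libraries. Dnase1l3 also lost its call without wild-type HFD 3, at an adjusted p of 0.0716. With the level of the 8 loci as a term the called members were Fcgr2b and Mrc1, and the 3 named here were not. That fit called 0.873% of all genes, against 4.23% without the term. The comparison shares its wild-type HFD livers with that between genotypes on HFD, so the values of both rest in part on the same 3 libraries.

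HFD against ND in Mlkl-/- mice asks the same of livers without the gene. None of the 34 genes was called, although 27 had a negative fold change, Egfl7 among them changing sign without TMM scaling (48.1% of all genes were positive), and the median was -0.49, beside -0.02 over all genes and 0.359% of all genes called. At an unadjusted p under 0.05 there were 15, all lower, beside 13.6% of all genes, and DESeq2 called 3 (Fcgr2b, Oit3 and Stab2), with 2.84% of all genes. In 6 genes (Stab2, Fcgr2b, Gpr182, Aqp1, Oit3 and Dnase1l3) all HFD values were below all ND values, beside 7.51% of all genes, and in 1, Vwf, all were above (8.02%). The summed level of Mlkl-/- ND 1 lay below that of Mlkl-/- ND 2 and 3. Without that library edgeR called 6 members, F8, Fcgr2b, Flt4, Mrc1, Oit3 and Ptprb, all lower on HFD, when 3.92% of all genes were called. Mlkl-/- ND 1 was also the only ND library with a high level of the 8 loci, which all Mlkl-/- HFD livers had. Without it, diet and that level cannot be told apart in Mlkl-/- livers. The 15 at an unadjusted p under 0.05 became 7 without Mlkl-/- ND 2, 7 without Mlkl-/- ND 3, 9 without Mlkl-/- HFD 1 and 10 without Mlkl-/- HFD 2, with 0 called each time. With a term for the 8 loci they became 2, and the median -0.15, with 0 members and 0.149% of all genes called.

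Between genotypes on ND no endothelial gene passed the test. Mlkl, the deleted gene, was not called there either (-2.12 ± 0.37, log2, SE; edgeR adjusted p = 0.144), so a missing call does not show equal levels. None was called, 1 (Egfl7) had an unadjusted p under 0.05, beside 5.51% of all genes, and edgeR called 0.00553% of all genes. DESeq2 called 0 of the 34 and 0.271% of all genes. The median was -0.09. Egfl7 and Cd34 were lower without overlap in Mlkl-/- livers, beside 5.54% of all genes. The interaction, the difference between the diet effects of the genotypes, was called by edgeR in 0 of 34 and in 0% of all genes. It was negative in 30 of the 34 with a median of -0.80, where 50.8% of all genes were positive, and at an unadjusted p under 0.05 there were 21, all negative, beside 10.4% of all genes. DESeq2 called the interaction of Dnase1l3, Fcgr2b, Flt4 and Stab2, with 0.32% of all genes. Averaged over diets 33 of the 34 genes were negative in Mlkl-/- against wild-type livers, and without TMM scaling Ramp2 was as well, with a median of -0.47 (0 called by edgeR, with 0.0166% of all genes called, 25 at an unadjusted p under 0.05 beside 10.6% of all genes, and 9 called by DESeq2 with 1.14% of all genes). Over all genes 51.7% were positive. Averaged over genotypes, Plvap was the 1 member called for diet, beside 7.19% of all genes called and 3.57% called higher.

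**Figure D3:**
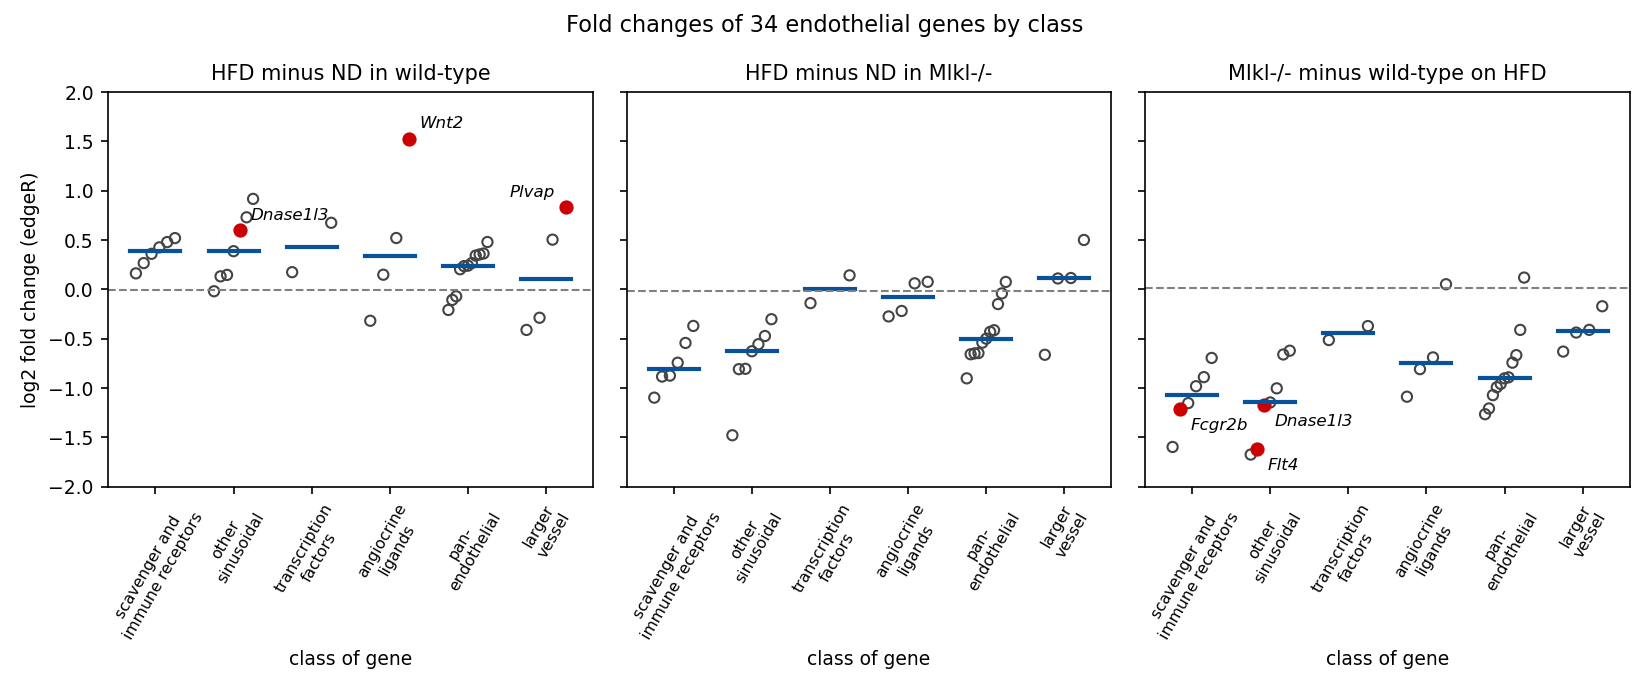
Log2 fold changes of the 34 genes in 3 comparisons, 1 circle a gene, by class, with called genes filled and named, the class median as a bar and the median of all genes tested as a dashed line. Class medians lie above the dashed line for diet in wild-type livers, and 32 of the 34 points lie below 0 for Mlkl-/- against wild-type on HFD.

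The scavenger and immune receptors take up waste from the blood. All 6 were negative on HFD in Mlkl-/- against wild-type livers (median -1.07, 1 called) and all 6 positive for diet in wild-type livers (median 0.39, 0 called). The shares of all genes called in these comparisons were 0.0276% and 4.23%. Stab2, the main receptor for hyaluronan clearance, was at 34, 35.1 and 18.8 CPM in wild-type ND, 56.8, 36.2 and 29.3 in wild-type HFD, 21.2, 35.2 and 30.1 in Mlkl-/- ND and 11.9, 11.7 and 16.8 in Mlkl-/- HFD livers. The 3 Mlkl-/- HFD values were the lowest of all libraries, and wild-type HFD 1 was the highest. The log2 difference on HFD was -1.60 ± 0.30 (adjusted p = 0.0869). Its paralogue Stab1, which takes up modified lipoproteins, was at 36.5, 35.1 and 22.7 CPM in wild-type ND, 50.3, 36 and 34.7 in wild-type HFD, 24, 35.1 and 30.2 in Mlkl-/- ND and 17.1, 20.1 and 24 in Mlkl-/- HFD livers. The genotypes did not overlap on HFD (difference -0.98 ± 0.21, adjusted p = 0.107).

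Mrc1, the mannose receptor, was at 37.3, 32.4 and 31 CPM in wild-type ND, 58.8, 42.3 and 43.2 in wild-type HFD, 19.2, 46.1 and 53.4 in Mlkl-/- ND and 19.3, 19.9 and 25.6 in Mlkl-/- HFD livers. Mlkl-/- ND 1 was as low as the Mlkl-/- HFD livers, while Mlkl-/- ND 2 and 3 were within the wild-type HFD range. Clec4g, a C-type lectin also named LSECtin, was at 38.6, 38 and 32.3 CPM in wild-type ND, 52, 39.4 and 39.6 in wild-type HFD, 24.2, 33.6 and 33.5 in Mlkl-/- ND and 25, 21.4 and 24.3 in Mlkl-/- HFD livers. Its highest library was closer to its lowest, as a ratio, than in the other 5 genes of the class, with all Mlkl-/- HFD values under all wild-type values of either diet (difference on HFD -0.89 ± 0.16, adjusted p = 0.0613). Lyve1, a hyaluronan receptor that is also found on lymphatic vessels, ran from 4.86 to 21.8 CPM. It departed from the other 5, since wild-type HFD 3, at 5.30 CPM, was within the Mlkl-/- HFD range of 4.86 to 10.6.

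Among the other sinusoidal genes all 7 were lower without overlap on HFD in Mlkl-/- livers (median -1.15, 2 called). Of all genes tested, 10.8% were lower without overlap and 0.0276% were called. F8, which codes for coagulation factor VIII, was at 12.9, 12.4 and 8.21 CPM in wild-type ND, 27, 20.04 and 16 in wild-type HFD, 5.89, 25 and 24.1 in Mlkl-/- ND and 4.43, 4.66 and 10.6 in Mlkl-/- HFD livers. It had the widest range of the class as a ratio, and Mlkl-/- ND 1 was far below Mlkl-/- ND 2 and 3. Its difference on HFD was -1.67 ± 0.53 (adjusted p = 0.206). Aqp1, a water channel, was at 75.3, 68.5 and 51.5 CPM in wild-type ND, 97.5, 81.1 and 76.7 in wild-type HFD, 53.1, 62.3 and 54.2 in Mlkl-/- ND and 30.2, 35.7 and 49.4 in Mlkl-/- HFD livers. The 3 Mlkl-/- HFD livers were the lowest of all and the wild-type HFD livers the highest, with a difference of -1.15 ± 0.19 (adjusted p = 0.0518), just short of a call.

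Oit3, a zona pellucida domain protein used as a sinusoidal marker, was at 22.8, 18.9 and 15 CPM in wild-type ND, 26, 18.9 and 17.1 in wild-type HFD, 13.8, 19.3 and 21 in Mlkl-/- ND and 8.63, 11.5 and 10.8 in Mlkl-/- HFD livers. Gpr182, an atypical chemokine receptor, was at 19.98, 22 and 16.1 CPM in wild-type ND, 24.7, 18 and 14.5 in wild-type HFD, 16.6, 21.6 and 17.8 in Mlkl-/- ND and 10.5, 13.2 and 12.6 in Mlkl-/- HFD livers. For both, the Mlkl-/- HFD values were below all 9 other libraries, and wild-type ND and HFD values overlapped. Ehd3, which acts in endocytic recycling, was at 37.9, 39.99 and 23.1 CPM in wild-type ND, 42.6, 28.5 and 40.6 in wild-type HFD, 26.4, 33.7 and 29.4 in Mlkl-/- ND and 24.5, 27.7 and 20.4 in Mlkl-/- HFD livers. Its wild-type HFD 2 value lay close to the highest Mlkl-/- HFD value, and its difference of -0.62 ± 0.21 was the smallest of the 7 in size.

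The sinusoidal transcription factors overlapped between genotypes on both diets. Gata4, which directs the sinusoidal as against the continuous capillary fate, was at 14, 12.4 and 9.19 CPM in wild-type ND, 13.8, 14.7 and 11.4 in wild-type HFD, 6.77, 9.47 and 11.7 in Mlkl-/- ND and 11.6, 7.45 and 11.9 in Mlkl-/- HFD livers. Its log2 differences in the 4 simple comparisons ran from -0.37 to 0.17. Maf was at 22.1, 25.5 and 31.4 CPM in wild-type ND, 43.9, 46.3 and 35.8 in wild-type HFD, 28.8, 33.1 and 35.5 in Mlkl-/- ND and 24.6, 21.6 and 42.1 in Mlkl-/- HFD livers. The wild-type HFD values of Maf were above the wild-type ND values (difference 0.67 ± 0.22, adjusted p = 0.0955), and Mlkl-/- HFD 3 stood apart from replicates 1 and 2.

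Of the 4 angiocrine ligands Wnt2 was described above. Rspo3, which amplifies Wnt signals by removing the receptor-degrading ligases RNF43 and ZNRF3, was at 4.44, 4.07 and 4.58 CPM in wild-type ND, 6.24, 6.76 and 5.78 in wild-type HFD, 4.91, 3.59 and 4.50 in Mlkl-/- ND and 4.39, 2.93 and 3.42 in Mlkl-/- HFD livers. Wild-type HFD values were above all 9 others, with differences of 0.52 ± 0.21 for diet in wild-type (adjusted p = 0.171) and -0.81 ± 0.21 for genotype on HFD (adjusted p = 0.143). Bmp2, the endothelial ligand that drives hepcidin, was at 14.7, 11 and 11 CPM in wild-type ND, 16.7, 12.1 and 11.9 in wild-type HFD, 9.13, 8.81 and 11.4 in Mlkl-/- ND and 9.73, 7.26 and 8.28 in Mlkl-/- HFD livers. Its genotypes were apart on HFD (difference -0.69 ± 0.19, adjusted p = 0.156). Wnt9b was between 0.434 and 1.32 CPM, with overlapping groups in each comparison.

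Hepatocyte genes that answer to Wnt, R-spondin and BMP signals were read beside the ligands. Of 18 such genes 4 rose and 1 fell for diet in wild-type livers, with a median of 0.45, where 4.23% of all genes were called. Glul, glutamine synthetase, rose from 387 ± 5.84 to 1140.0 ± 266 CPM (1.56 ± 0.27, adjusted p = 0.0102), and Axin2, a feedback inhibitor of the Wnt pathway, from 3.75 ± 0.697 to 9.15 ± 2.33 CPM (1.29 ± 0.29, adjusted p = 0.0243). Lect2 and Rnf43 rose as well, by 0.98 and 0.90. Hamp, which codes for hepcidin, fell (-1.69 ± 0.41, adjusted p = 0.0471). In Mlkl-/- livers 0 of the 18 were called by edgeR for diet, beside 0.359% of all genes. Of the 18, 16 were positive with a median of 0.56, and 6 had an unadjusted p under 0.05, beside 13.6% of all genes. Averaged over genotypes, 6 of the 18 were called higher on HFD, beside 3.57% of all genes. The interaction was called in 0 of the 18 and in 0% of all genes. Between genotypes on HFD 0 of 18 were called, 8 positive and 10 negative (5 and 13 without TMM scaling). An unadjusted p under 0.05 was found in 2 of the 18, beside 15.5% of all genes. The median of the 18 was -0.09, against a median of -0.75 for the 4 ligands.

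The pan-endothelial genes are known as markers of endothelium in general. Of 11, 10 were negative on HFD in Mlkl-/- against wild-type livers, 8 without overlap (median -0.90, 0 called and 9 at an unadjusted p under 0.05). Among all genes tested 10.8% were lower without overlap, and 15.5% had an unadjusted p under 0.05. Kdr, the main VEGF receptor VEGFR-2, was at 36.9, 30.6 and 23 CPM in wild-type ND, 44.5, 33.2 and 30.9 in wild-type HFD, 18.7, 28.7 and 27.7 in Mlkl-/- ND and 16.2, 15 and 20.5 in Mlkl-/- HFD livers. Ptprb, a phosphatase that acts on the angiopoietin receptor and on VE-cadherin, was at 58.1, 60.2 and 46.1 CPM in wild-type ND, 92.6, 60.2 and 55.5 in wild-type HFD, 31.9, 67.1 and 69.5 in Mlkl-/- ND and 27, 22 and 41.2 in Mlkl-/- HFD livers. In both genes wild-type HFD 1 was the highest library, and the Mlkl-/- HFD values were below all wild-type values of either diet. Their differences on HFD were -1.07 ± 0.21 (adjusted p = 0.0883) and -1.21 ± 0.32 (adjusted p = 0.154).

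Cdh5, VE-cadherin of the cell junctions, was at 24.2, 19.1 and 12.6 CPM in wild-type ND, 29.5, 25 and 17.2 in wild-type HFD, 10.9, 18.3 and 17.4 in Mlkl-/- ND and 7.72, 8.31 and 13.8 in Mlkl-/- HFD livers. Plxnd1, a semaphorin receptor, was at 26.9, 26.4 and 18.9 CPM in wild-type ND, 31.7, 31 and 20.4 in wild-type HFD, 14.1, 24.6 and 20.4 in Mlkl-/- ND and 12, 14.9 and 15 in Mlkl-/- HFD livers. The genotypes were apart on HFD in both, by -1.26 and -0.99, whereas Mlkl-/- HFD 3 exceeded the lowest wild-type ND library in Cdh5. Tie1, a partner of the angiopoietin receptor, was at 9.99, 10.4 and 7.00 CPM in wild-type ND, 12.5, 12.4 and 13.2 in wild-type HFD, 7.41, 10.6 and 9.43 in Mlkl-/- ND and 4.62, 7.93 and 7.78 in Mlkl-/- HFD livers. It was higher without overlap in wild-type HFD than in wild-type ND livers (difference 0.48 ± 0.22, adjusted p = 0.229).

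Tek, the angiopoietin receptor itself, Eng, a co-receptor for BMP9, and the junctional adhesion molecule Pecam1 were also lower without overlap on HFD, by -0.96, -0.67 and -0.89 on the log2 scale. Emcn, a sialomucin, ranged from 0.667 to 2.88 CPM and overlapped in each comparison. Egfl7, a secreted matrix factor, was at 18.3, 18.2 and 15.2 CPM in wild-type ND, 17.8, 15 and 11.9 in wild-type HFD, 12, 12.5 and 10.1 in Mlkl-/- ND and 13, 12.2 and 8.44 in Mlkl-/- HFD livers. Its values were lower in Mlkl-/- than in wild-type livers on ND (-0.58 ± 0.19, adjusted p = 0.656) and overlapped on HFD. Ramp2, the partner of the adrenomedullin receptor, was at 52.1, 55.8 and 43.6 CPM in wild-type ND, 50.4, 47.8 and 46.1 in wild-type HFD, 55.1, 50.2 and 43.5 in Mlkl-/- ND and 60.6, 50.3 and 45.9 in Mlkl-/- HFD livers. Its group means ran from 48.1 to 52.3 CPM, and the order of the Mlkl-/- HFD livers against the others seen in most members was not seen in it.

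All 4 genes of larger vessels and capillarisation were negative on HFD in Mlkl-/- against wild-type livers (median -0.42, 1 without overlap, 0 called by edgeR and 1 at an unadjusted p under 0.05). On HFD 10.8% of all genes were lower without overlap, and 15.5% had an unadjusted p under 0.05. For diet in wild-type livers 2 of the 4 were positive and 2 negative. Vwf, which tethers platelets and is made by larger vessels, was at 6.06, 5.40 and 2.85 CPM in wild-type ND, 7.92, 7.49 and 4.72 in wild-type HFD, 3.29, 3.36 and 3.87 in Mlkl-/- ND and 5.15, 4.52 and 5.23 in Mlkl-/- HFD livers. Its Mlkl-/- HFD values were above all Mlkl-/- ND values (difference 0.50 ± 0.28, adjusted p = 0.443). Sox17, an arterial transcription factor, was at 1.92, 2.11 and 2.55 CPM in wild-type ND, 1.60, 1.85 and 1.49 in wild-type HFD, 1.08, 1.64 and 2.33 in Mlkl-/- ND and 0.906, 1.39 and 0.906 in Mlkl-/- HFD livers. Its wild-type HFD values were below all wild-type ND values (-0.41 ± 0.32, adjusted p = 0.523), and its Mlkl-/- HFD values were below all wild-type HFD values. Plvap was described above. Cd34, a sialomucin of continuous capillaries, was at 2.43, 2.36 and 1.93 CPM in wild-type ND, 2.60, 1.76 and 1.11 in wild-type HFD, 1.47, 1.77 and 1.26 in Mlkl-/- ND and 0.429, 2.88 and 1.56 in Mlkl-/- HFD livers. Its highest and lowest libraries were both Mlkl-/- HFD livers.

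Sinusoidal genes were then set against pan-endothelial ones, the markers of endothelium in general, in the same liver. For each library the mean log2 deviation of the 11 pan-endothelial genes from their own 12-library means was subtracted from that of the 19 sinusoidal genes. It was -0.12, -0.14 and -0.10 in wild-type ND, 0.11, 0.06 and 0.10 in wild-type HFD, 0.09, 0.01 and 0.04 in Mlkl-/- ND and 0.08, -0.17 and 0.03 in Mlkl-/- HFD livers. Wild-type ND lay under every library but Mlkl-/- HFD 2. For diet in wild-type livers the difference was 0.21, from -0.12 ± 0.02 to 0.09 ± 0.03 (SD, n = 3), and the groups did not overlap. On ND the Mlkl-/- livers were higher by 0.17, also without overlap. On HFD the genotypes differed by -0.11 and overlapped, with an SD of 0.13 in the Mlkl-/- livers. The median log2 fold change between genotypes on HFD was -0.98 for the 19 sinusoidal and -0.90 for the 11 pan-endothelial genes. Since the genes were chosen with results known, no test of this contrast was made.

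**Figure D4:**
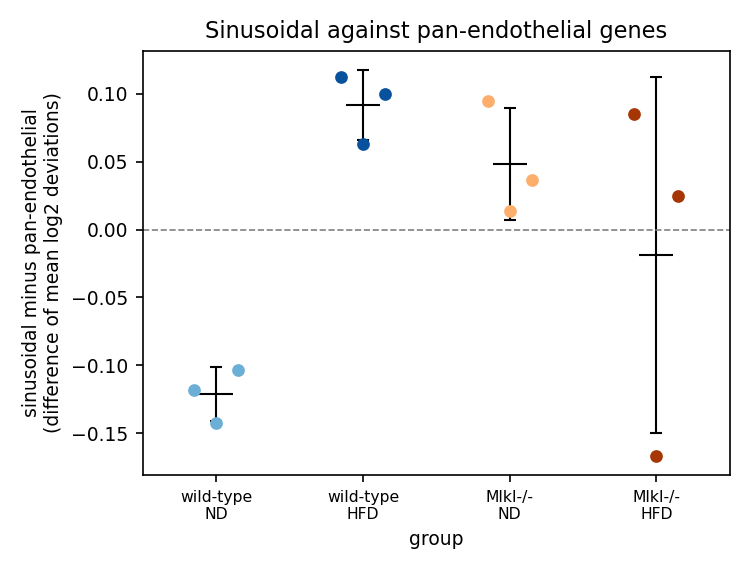
Mean log2 deviation of 19 sinusoidal genes minus that of 11 pan-endothelial genes, 1 point a library, with group mean and SD (n = 3) in black. The wild-type ND points lie between -0.14 and -0.10, under all wild-type HFD and Mlkl-/- ND points, and the Mlkl-/- HFD points spread from -0.17 to 0.08.

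Other genes of endothelium were read from lists beyond the 34. Of 28 tested receptors, junction proteins and enzymes, 26 were negative on HFD in Mlkl-/- against wild-type livers, 15 without overlap, and 0 were called by edgeR (16 at an unadjusted p under 0.05, median -0.73). Among all genes 10.8% were lower without overlap, and 15.5% had an unadjusted p under 0.05. For diet in wild-type livers Nrp2, a co-receptor for VEGF-C and semaphorins, rose from 8.19 ± 0.917 to 27.7 ± 3.54 CPM (1.76 ± 0.25, adjusted p = 0.00538), and the fatty acid transporter Cd36, which hepatocytes and macrophages also make, rose by 1.94 ± 0.46 (adjusted p = 0.0471). In Mlkl-/- livers the caveolar protein Cav2 fell (-1.51 ± 0.30, adjusted p = 0.0458). Of 16 endothelial transcription factors 0 were called by edgeR in any of the 4 simple comparisons. From 0 to 5 of the 16 had an unadjusted p under 0.05, beside 5.51% to 20.5% of all genes. On HFD 14 of the 16 were negative between genotypes with a median of -0.55. Hhex and Nr2f2 had the highest mean CPM and were positive, at 0.45 and 0.08. Which cells gave the RNA of these factors was not tested.

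Genes of the neighbouring cells were read beside the endothelial ones. The summed level of 13 Kupffer cell and macrophage genes was 315, 292 and 222 CPM in wild-type ND, 484, 435 and 339 in wild-type HFD, 193, 324 and 378 in Mlkl-/- ND and 193, 164 and 309 in Mlkl-/- HFD livers. All 13 were negative between genotypes on HFD (median -0.90, 10 without overlap, 0 called by edgeR and 11 at an unadjusted p under 0.05), among them Clec4f at -0.90 and Cd5l at -1.02. In that comparison 10.8% of all genes were lower without overlap, and 15.5% had an unadjusted p under 0.05. The 16 stellate cell and fibroblast genes summed to 437, 388 and 355 CPM in wild-type ND, 668, 547 and 373 in wild-type HFD, 320.2, 424 and 408 in Mlkl-/- ND and 316, 359 and 359 in Mlkl-/- HFD livers. Of these 13 were negative (median -0.80, 5 without overlap, 0 called by edgeR and 10 at an unadjusted p under 0.05). Lum, a proteoglycan of collagen matrix, rose with diet in wild-type livers (1.20 ± 0.23, adjusted p = 0.0153). None of the genes of both lists was at 0 in any library. All 10 hepatocyte products were positive between genotypes on HFD (median 0.54, 5 without overlap, 0 called by edgeR and 6 at an unadjusted p under 0.05), where 10.6% of all genes were higher without overlap. For diet in wild-type livers all 10 were negative (9 without TMM scaling), with Fgb and Ahsg called, beside 4.23% of all genes. The 10 summed to 108255, 112554 and 107598 CPM in wild-type ND, 88427, 65362 and 70559 in wild-type HFD, 87575, 115905 and 105365 in Mlkl-/- ND and 84478, 114193 and 92309 in Mlkl-/- HFD livers. The 4 lymphatic genes, Prox1 included, summed to 75.7 to 163 CPM per library. Among them Ccl21a and Mmrn1 averaged 1.21 and 0.762 CPM over the 12 libraries. Mmrn1 and Pdpn were at 0 in at least 1 library, and Pdpn did not reach the minimum for testing. The 3 tested were positive between genotypes on HFD (median 0.31) and for diet in Mlkl-/- livers (median 0.97). EdgeR called 0 of them (0.0276% and 0.359% of all genes). Without TMM scaling 1 of the 3 was negative between genotypes on HFD. Bile duct genes summed to 23.3 to 126 CPM and lymphocyte genes to 3.24 to 11.7 CPM per library. The part of these cell type lists in the endothelial differences was not tested.

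**Figure D5:**
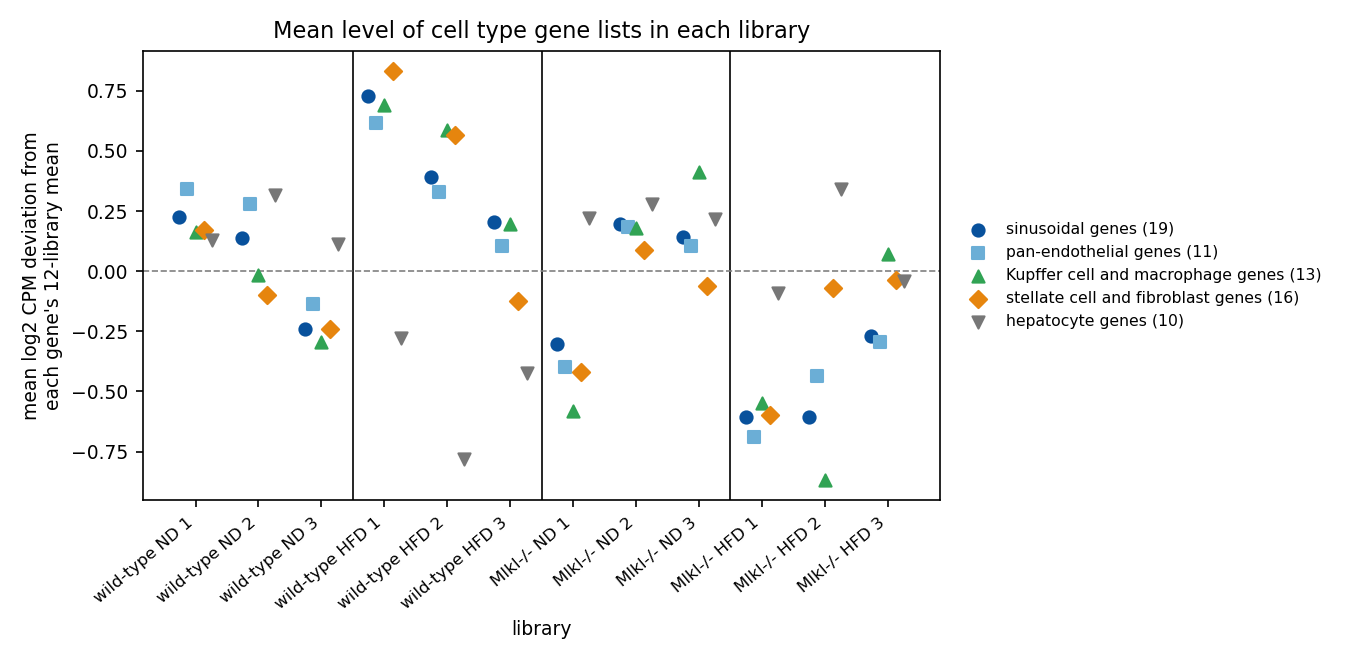
Mean log2 CPM deviation of 5 gene lists from each gene's 12-library mean, per library, with the number of genes in brackets. Sinusoidal, pan-endothelial and macrophage points are above 0 in the 3 wild-type HFD libraries, and hepatocyte points are below 0 there.

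The title codes, numbers after the diet that the labels do not explain, were 23 or 27 on ND and 25 or 29 on HFD. No code holds both diets, so a diet difference within a code cannot be taken. With 23 and 25 joined, and 27 and 29 joined, the mean of the 34 genes kept its sign in 3 of the 4 simple comparisons. For diet in wild-type livers the differences were 0.44 in livers coded 23 or 25 and 0.45 in those coded 27 or 29. For diet in Mlkl-/- livers they were -0.22 and -0.39, and for genotype on HFD -1.21 and -0.52. For genotype on ND they were opposed, at -0.56 and 0.32, where the first rests on Mlkl-/- ND 1. Each of these values has 1 liver on one side.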

How the data were processed

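Transcript 3' ends of 12 mouse livers were sequenced. Per the labels' protocols, libraries were made with the QuantSeq 3' kit. Per the submitters' processing notes, which give neither roles nor order, the mm10 build and the tools HISAT2, featureCounts, limma and cutadapt 1.9 were used. Other versions, the annotation and the strand setting were not given in the sources used here. As the data, the authors deposited raw counts for 51912 Ensembl genes, without normalization, and 51633 matched a symbol. Columns were matched to samples by the animal number in the title.

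Counts were fitted with edgeR 4.0.16 in R 4.3.3: filterByExpr (minimum 10 counts, 15 in total; 18098 genes), TMM scaling, 1 mean per group over all 12 libraries (8 residual degrees of freedom), robust glmQLFit and glmQLFTest, with Benjamini-Hochberg adjustment over all genes. The code was tested on simulated data. Library means of log2 CPM used a prior count of 2. Every pair of libraries of a group differed beyond sampling noise (chi-square per degree of freedom at least 17.9), so none was treated as a copy. No source speaks of molecular identifiers, so counting errors cover sampling only, and the number of counts limits the precision of low genes such as Wnt2.

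The 34 genes, classes, lists and motifs were chosen with earlier results of these data known. The value in every library is given for called members, for those without overlap in a simple comparison (up to 4 a class and comparison, by fold change, at 1 CPM or more) and for the 2 most abundant of a class. Of other lists, called genes (up to 4) or the 2 most abundant are named, as far as a result turns on them, and Mlkl checks the labels. Alternatives were RLE factors, library size alone, 2 other filters, DESeq2 1.42.0, limma-voom (limma 3.58.1), non-robust dispersions, the compared groups alone, the title code or the 8-locus level (above 1000 raw CPM) as a term, and leaving out each library. The title code term set 23 or 25 against 27 or 29, and each code belongs to 1 diet.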

Additional observations from a re-analysis of the deposited data

How the results depend on the processing

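The count of members called between genotypes on HFD was 3, beside 0.0276% of all genes. It became 7 with library size alone, 10 without a filter beyond 1 count and 16 with DESeq2 (0.199%, 0.404% and 2.2% of all genes). It was 1 with a filter of 5 CPM in 3 libraries, with limma-voom, without robust dispersions or with the title code as a term (0.0166% to 0.0221% of all genes). All called members in these settings were lower in Mlkl-/- livers. For diet in wild-type livers it was 3, and 5 with the compared groups alone, with 8.21% of all genes called against 4.23%. In Mlkl-/- livers it was 0, then 2 without a filter (0.557% of all genes) and 3 with DESeq2 (2.84%), and the interaction went from 0 to 4 with DESeq2 (0.32%). The diet effect averaged over genotypes went from 1 to 2 with library size alone or DESeq2 (10.9% and 10.8% of all genes, against 7.19%) and to 0 with the 8-locus term (0.674%). The genotype effect averaged over diets went from 0 to 1 with library size alone or the title code (0.0332% and 0.0718% of all genes, against 0.0166%). It was 7 without a filter (0.241% of all genes) and 9 with DESeq2 (1.14%). Without 1 library at a time the counts ran from 0 to 11 for genotype on HFD, 0 to 4 for diet in wild-type, 0 to 6 for diet in Mlkl-/-, 0 to 0 for genotype on ND, 0 to 1 for the interaction, 0 to 2 for averaged diet and 0 to 2 for averaged genotype. The share of all genes called moved as well. For diet in wild-type it was 1.07% without wild-type ND 1 and 0.538% without wild-type ND 2, against 4.23%. The sinusoidal minus pan-endothelial difference for diet in wild-type livers was 0.21 and became 0.16 with the 5 CPM filter. Without 1 library it ran from 0.20 to 0.23, and from -0.12 to 0.01 for diet in Mlkl-/-, 0.15 to 0.19 for genotype on ND and -0.16 to -0.04 for genotype on HFD. None of the 7 called gene effects changed sign in any alternative run, and Wnt2 did not enter the 5 CPM filter; the cause of lost calls was not tested. No paired analysis was possible because the titles number samples across the groups and give the groups no shared replicate numbers. Depth limits Wnt2, Wnt9b, Emcn, Sox17 and Cd34 most, which were under 4 CPM in each library.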

Other observations

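Ligands that act on endothelium were read from a list of their own. Of 12 tested VEGF, angiopoietin, Notch, BMP and related ligands, edgeR called 0 in the 4 simple comparisons. In each, 1 to 3 had an unadjusted p under 0.05, beside 5.51% to 20.5% of all genes. Vegfb, a VEGF family member linked to fatty acid uptake, rose with diet averaged over genotypes by 0.79 ± 0.20 (log2, SE; edgeR adjusted p = 0.0309). It was at 5.55, 6.23 and 6.45 CPM in wild-type ND, 9.08, 14.1 and 9.54 in wild-type HFD, 9.23, 4.74 and 4.34 in Mlkl-/- ND and 13.5, 7.98 and 8.81 in Mlkl-/- HFD livers. Vegfa, the main growth factor for endothelium, which hepatocytes make, was at 95.8, 106 and 122 CPM in wild-type ND, 81.4, 83.1 and 92.8 in wild-type HFD, 83.2, 94.2 and 67.8 in Mlkl-/- ND and 79.8, 110.3 and 83.6 in Mlkl-/- HFD livers, with all wild-type HFD values and all Mlkl-/- ND values below all wild-type ND values and adjusted p of 0.259 and 0.816. Gdf2, which codes for the stellate cell ligand BMP9, differed by -0.21 ± 0.21 between genotypes on HFD (adjusted p = 0.658). Pgf and Apln had too few counts for testing. The list's median between genotypes on HFD was -0.24, beside -0.89 for the 34 genes.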
